A study of Mus musculus with 30 samples.

Results

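The stomach was compared with the small intestine of untreated mice on 4 of the 30 arrays of a mouse organ atlas, 2 stomach arrays and 2 small intestine arrays. The arrays were chosen by their sample labels alone. All animals were male C57BL/6, an inbred laboratory strain, and no group carried a transgene, a deletion or a drug. The labels give an age of 28 weeks, whereas the methods of the study give a slightly older one. Whole-organ RNA was labelled with Cy3 and hybridised beside a Cy5-labelled common reference, a pool of mouse cell line RNA mixed with embryonic stem cell RNA. The dye orientation was the same on every array. The labels do not tell which stretch of either organ was taken. By the study's methods the 2 arrays of an organ came from separate mice, but the labels do not tie an array to an animal or link the organs of 1 mouse.

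The mouse stomach has 2 linings. The forestomach carries a keratinised, stratified squamous epithelium like that of the skin, and the glandular stomach carries pits and glands that secrete mucus, acid and pepsinogen. The small intestine is lined by absorptive cells whose brush border holds the last enzymes of sugar and peptide digestion, and these cells also re-esterify fat and export it in lipoproteins. In whole organs, fewer cells of a type and less RNA per cell cannot be told apart.

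Each level below is log2 of tissue signal over reference signal for 1 probe, and each difference is stomach minus small intestine on that scale. A probe was called when the limma test, fitted over the arrays of all 15 tissues, gave a Benjamini-Hochberg adjusted p below 0.05 and the difference was at least 1, which is a 2-fold change. Of 21019 probes tested, 3368 were called, or 16.0%. They comprised 1752 higher in stomach (8.34%) and 1616 higher in small intestine (7.69%). Among the called probes 52.0% were higher in stomach, a share that became 63.4% when the arrays were centred on their medians in place of the intensity-dependent scaling. The median difference over all probes tested was 0.0039. Replicate arrays correlated at r = 0.982 for stomach and r = 0.970 for small intestine, against 0.666 to 0.676 between the organs. Both stomach arrays shared a slide with small intestine replicate 2, while small intestine replicate 1 lay on another slide. With the slide as a block 3630 probes were called, 3088 of them among the 3368. Within the shared slide, on 3 of the same 4 arrays, the difference was at least 1 for 1616 of the 1752 and 1499 of the 1616.

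**Figure D1:**
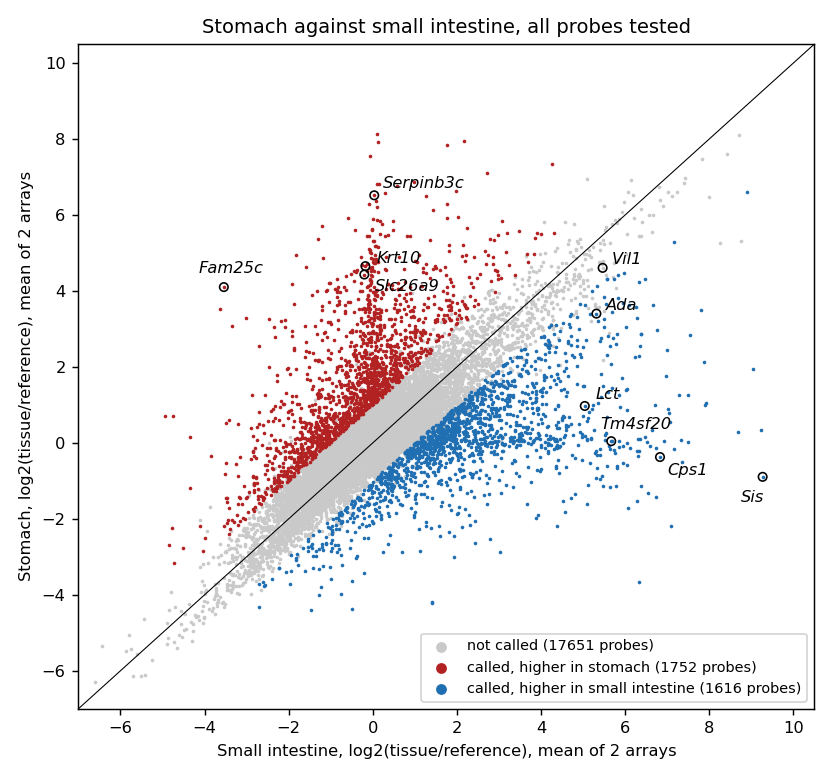
Mean log2(tissue/reference) of the 2 stomach arrays (y axis) against that of the 2 small intestine arrays (x axis) for each of the 21019 probes tested, with the line of equal level. The 1752 probes called higher in stomach lie above the line and the 1616 called higher in small intestine below it, with Sis farthest from it at -0.89 in stomach and 9.27 in small intestine.

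The reference channel bears on every ratio. Cy5 held the same RNA on each array, yet its signal was higher on the arrays whose tissue expressed a gene strongly. Of the 1752 probes higher in stomach, 205 (11.7%) had a Cy5 signal higher on the stomach arrays by a log2 of at least 1, and 1 had the opposite. Of the 1616 probes higher in small intestine, 257 (15.9%) had a higher Cy5 signal on the small intestine arrays and 2 the opposite. The share was 52.5% of the 162 probes higher in stomach by a log2 of 4 or more and 61.4% of the 184 such probes higher in small intestine. Among the 17651 probes not called it was 0.289% and 0.397%. For Lct, which encodes lactase, the Cy5 signal was 157 and 138 on the stomach arrays and 25457 and 25747 on the small intestine arrays. The cause was not tested. For such probes the ratio shows a smaller difference than the Cy3 signal alone. The Cy3 difference is given below for some members only, and others that are named have gaps as wide or wider.

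Of the 12 named genes with the greatest excess in stomach, 4 were on the list of squamous epithelium genes, Fam25c, Serpinb3c, Serpinb13 and Serpinb2. Fam25c read 4.04 and 4.17 in stomach and -3.84 and -3.24 in small intestine. Its difference of 7.64 ± 0.40 (SE, n = 2 arrays per organ) was the largest in stomach among the probes with a gene symbol (limma adjusted p = 3.51e-11). Serpinb3c, a clade B serpin that inhibits proteases inside cells, read 6.50 and 6.53 against 0.09 and -0.02, a difference of 6.48 ± 0.14 (limma adjusted p = 2.08e-16). The groups lay far apart for both genes and the replicates close together. Sptssb, a small subunit of the enzyme that starts sphingolipid synthesis, read 6.29 and 6.45 in stomach. It was not well above background on either small intestine array, and its signal was at least 71.7-fold higher in stomach. Each such bound is the lowest of the fold by the ratio, a Cy3 bound after scaling between arrays, and the fold of the unscaled Cy3 signals. It is open to dye bias since no dyes were swapped. No bound covers the ratio under median centring, which gave several genes a smaller fold than their bound. In this text "at least" therefore refers to the measures named here and not to every scaling. A difference against an organ without signal above background has no exact place in an order of size, which touches 4 of the 12 leading stomach genes and 6 of the 12 leading small intestine genes. Macc1, a regulator of growth factor receptor expression, read 5.86 and 5.80 against 0.23 and 0.12. Slc45a3, a solute carrier, read 4.10 and 4.34 against -0.97 and -1.08. Aox4, an aldehyde oxidase, read 3.87 and 4.22 against -0.98 and -0.83. The list of the 12 largest named differences was completed by Cysrt1 (6.02), Fabp12 of the fatty acid-binding protein family (5.37), Plet1 (5.11), and Lypd6b (at least 37.4-fold), Serpinb13 and Serpinb2.

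**Figure D2:**
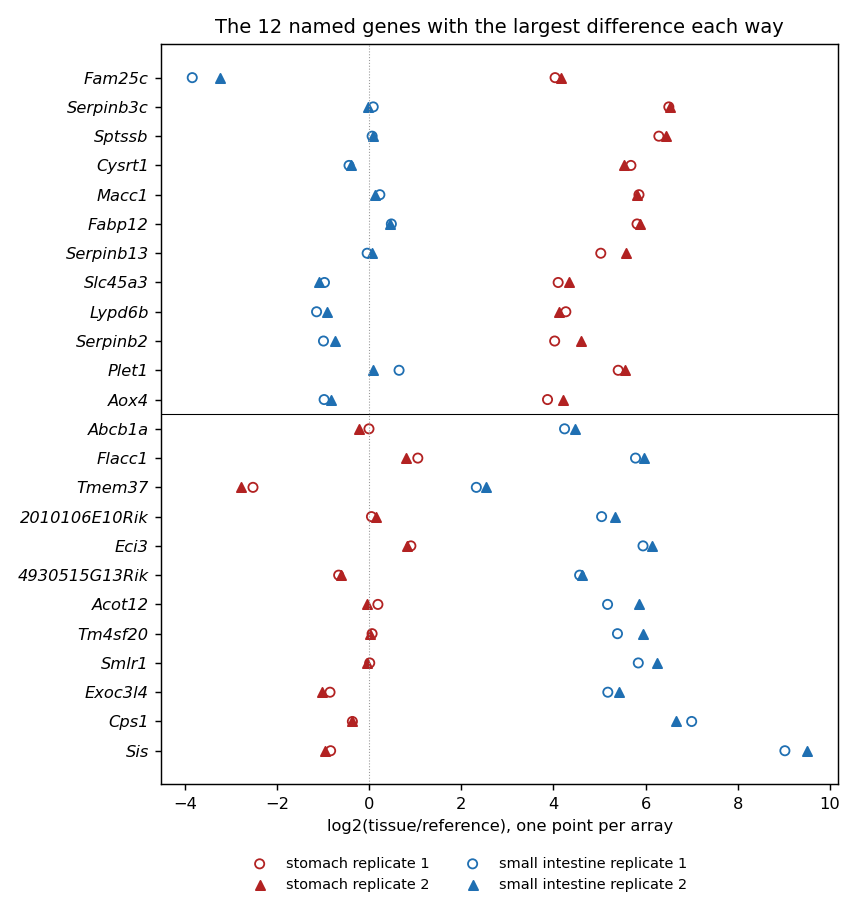
Log2(tissue/reference) on each of the 4 arrays (x axis, one point per array) for the 12 named genes that differed most in either direction (y axis). The genes were chosen so that the points of the organs do not overlap, and the widest gap is that of Sis.

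The probes of genes that carry these results are shown by their sequence, since a value belongs to the 60-base probe and not to the whole gene. Near-identical paralogues such as the Serpinb3 genes may share signal.
Serpinb3a: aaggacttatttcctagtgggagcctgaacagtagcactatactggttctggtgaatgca
Serpinb3b: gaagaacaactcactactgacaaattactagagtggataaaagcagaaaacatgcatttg
Serpinb3c: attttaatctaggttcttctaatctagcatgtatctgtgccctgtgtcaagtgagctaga
Serpinb13: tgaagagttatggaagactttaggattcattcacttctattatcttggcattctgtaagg
Krt10: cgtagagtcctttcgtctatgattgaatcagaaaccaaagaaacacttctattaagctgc
Fam25c: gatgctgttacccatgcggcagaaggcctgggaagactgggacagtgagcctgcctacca
Sis: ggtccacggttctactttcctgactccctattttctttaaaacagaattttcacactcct
Lct: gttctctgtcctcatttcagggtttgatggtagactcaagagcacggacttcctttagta
Tm4sf20: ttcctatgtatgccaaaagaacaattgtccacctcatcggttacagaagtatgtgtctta

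Squamous epithelium was the list with the greatest share of calls. Of its 21 probes tested, 16 were higher in stomach and none was higher in small intestine by limma, where 17 and 0 had an unadjusted p below 0.05. Over all tested probes with a symbol, 6.36% were higher in stomach and 5.43% in small intestine. The median difference of the list was 3.70, or 3.66 with the members that lacked signal in small intestine at their bounds. Krt10, the keratin of the upper layers of stratified epithelium, read 4.64 and 4.66 in stomach against -0.02 and -0.33, a difference of 4.83 ± 0.20. Its Cy5 signal was 14089.6 and 15478 on the stomach arrays and 1036 and 1343 on the others, and by Cy3 alone its difference was 8.21. Lce1a2 and Sprr1a encode precursors of the cornified envelope, the protein shell of a keratinised cell. Lce1a2 read 4.74 and 4.77 against 1.04 and 1.07, and Sprr1a read 2.97 and 3.02 against -1.24 and -0.42. Abca12, which loads lipid into the secretory granules of keratinocytes, read 3.82 and 4.37 against 0.05 and 0.03 and was at least 12.9-fold higher. The desmosomal adhesion gene Pkp1 was higher by 1.69. The 5 members not called were Il1rl2 (0.74), Serpinb10 (0.13), Krtap12-1 (-0.03), Kprp (-0.29) and Lad1 (-0.31). From the scanner software's own processed signals, Pkp1 read 1.59 (limma adjusted p = 0.0597) and Serpinb5 0.87, and neither was called. By Cy3 alone Serpinb5 read 3.18 and was not called either (limma adjusted p = 0.0561).

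The clade B serpins formed a block of neighbouring genes on chromosome 1 that was higher in stomach. Of the 11 clade B serpin genes tested in chr1:106861175-107608978 (GRCm38.p6), 10 were called higher in stomach, compared with 6.36% of all probes with a symbol. Apart from Serpinb8, the 11 genes are also on the squamous list above, so the counts of both paragraphs overlap. Of the 10 called, 8 were not well above background on either small intestine array. The median difference over the 11 was 3.66 with those 8 at their bounds. Serpinb5 (2.15) and Serpinb3c (6.48) were measured in both organs. From the start of the cluster the bounds were at least 25.7-fold for Serpinb12, 27.3-fold for Serpinb13, 12.6-fold for Serpinb3a, 1.86-fold for Serpinb3b, 25.0-fold for Serpinb11, 5.35-fold for Serpinb7, 27.8-fold for Serpinb2 and 2.04-fold for Serpinb8. Serpinb10, which lies between Serpinb2 and Serpinb8, read 0.09 and 0.02 in stomach and -0.07 and -0.08 in small intestine and was not called, and by Cy3 alone its difference was -1.99. None of the 9 other named genes within 1.5 Mb of the cluster was called by limma, and their differences ran from -0.35 to 0.63. Under median centring Serpinb3b (0.78) and Serpinb8 (0.77) fell short of the minimum difference and of their bounds. Serpinb12 illustrates the reference channel, since its Cy5 signal was 2915 and 4239 on the stomach arrays but 56 and 67 on the small intestine arrays.

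**Figure D3:**
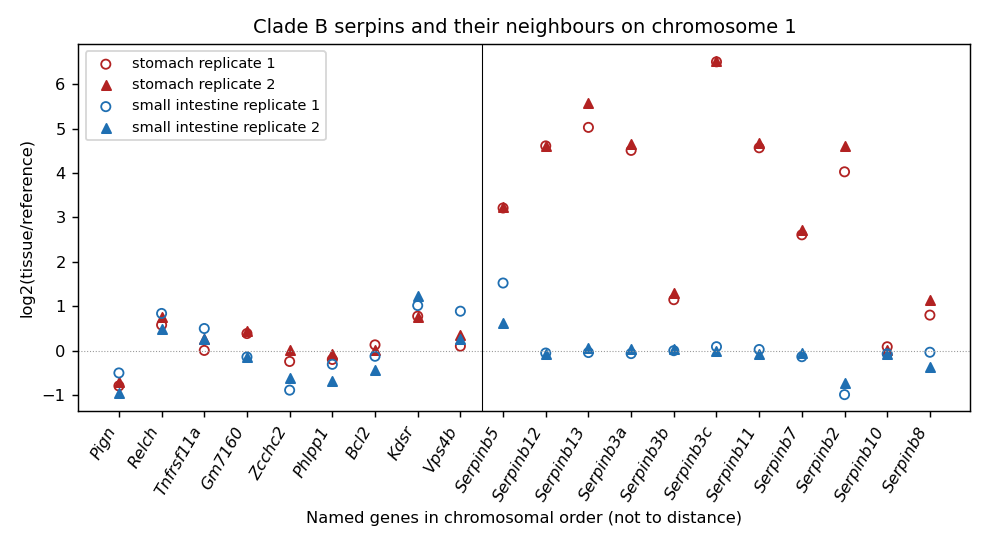
Log2(tissue/reference) on each of the 4 arrays (y axis, one point per array) for the named genes tested around the clade B serpin cluster of chromosome 1, in chromosome order (x axis), with a line where the serpins begin. The stomach points stand above the small intestine points for the 11 serpins, of which 10 were called and Serpinb10 was not, and none of the 9 other genes was called.

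The glands of the stomach were covered thinly, because 5 of the 41 genes on that list had a probe with a symbol. Of those 5, 3 were higher in stomach and none in small intestine, with 3 and 0 at an unadjusted p below 0.05 by limma. Slc26a9, a chloride channel and exchanger of gastric surface cells, read 4.47 and 4.39 against -0.23 and -0.17. It was at least 24.8-fold higher in stomach. Slc9a4, the basolateral sodium-proton exchanger of acid-secreting parietal cells, read 2.84 and 2.71 against -0.07 and 0.00 and was at least 7.02-fold higher. In every other tissue its mean was at most 0.10. Gkn3, a gastrokine secreted by the gastric mucosa, read 4.62 and 4.29 against 2.23 and 2.86, a difference of 1.91 ± 0.29. By Cy3 alone that difference was 5.76, while the scanner software's processed signals gave 1.14 (limma adjusted p = 0.0564). Ctse, the aspartic protease cathepsin E, read 3.30 and 3.31 against 2.14 and 1.86 and was not called (limma adjusted p = 0.211). With the slide as a block its difference was 1.45 and was called. It was also called at 1.31 on the 4 arrays of the pair alone, with the scan day as a block and with array weights. Slc9a2, another sodium-proton exchanger, was not called either, at 6.51 and 6.27 against 6.56 and 7.11. Markers of the pancreas were mixed. Of 5 tested, the amylase gene Amy2a5 (2.50 and 2.01 against 0.24 and -0.03, at least 3.44-fold) and the trypsin gene Try5 were called higher in stomach. The other members, Aqp12 (-0.32), Zg16 (-0.44) and Erp27 (-0.80), had negative differences and were not called, and the median of the list was -0.32. The part of pancreatic RNA in the stomach result was not tested. Try5 rested on 1 array, as it read 4.46 and 4.36 in stomach but 3.53 and -0.07 in small intestine. Its difference of 2.67 became 0.87 without small intestine replicate 2 and 4.48 without replicate 1. The summed level of the pancreas list was 5.26 to 5.61 on the stomach arrays and 4.96 to 5.03 on the small intestine arrays.

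Genes of the absorptive cell stood on the other side. Of 14 brush border probes tested, 9 were higher in small intestine and 1 was higher in stomach (1.21). The median difference was -2.12. Under median centring 8 were called higher in small intestine and none in stomach, and the median was -1.29. Sis, the sucrase-isomaltase that splits sucrose and starch fragments, read 9.02 and 9.51 in small intestine and -0.84 and -0.95 in stomach. It was not well above background on either stomach array and was at least 1146-fold higher in small intestine (limma adjusted p = 2.04e-05). Under median centring its difference was -8.87 in place of -10.16, a smaller fold than that bound. Tm4sf20, a membrane protein of the tetraspanin-like family, read 5.39 and 5.95 against 0.06 and 0.02 and was at least 49.3-fold higher. Under median centring its difference was -3.94 in place of -5.62, again a smaller fold than the bound. Pigr, the receptor that carries immunoglobulin A across the epithelium, read 4.69 and 4.72 against 0.48 and 0.51. Lct read 4.61 and 5.47 against 1.15 and 0.79, a difference of -4.07 ± 0.48 that was -11.84 by Cy3 alone. Gpa33 was lower in stomach by a difference of -2.77, Tm4sf4 by -2.28, and Ace, a peptidase of the brush border, by -1.96 (-1.19 under median centring). By Cy3 alone these differences were -4.97, -5.02 and -6.04. Alpi, the intestinal alkaline phosphatase, read 3.69 and 4.39 against 2.13 and 0.78. Its call did not hold with the scanner software's processed signals (-0.38) or in the deposited value table (-0.59), whereas by Cy3 alone the difference was -7.22. Cd55 (-1.14) lost its call when any one of the 4 arrays was left out, with values from -1.31 to -0.96, and by Cy3 alone (-1.54, limma adjusted p = 0.0973). Its call was also lost under median centring (-0.72), without background correction (-1.12) and with no detection filter (-1.14). Neither the processed signals nor the value table gave a call (-1.14 in both).

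The structural proteins of the brush border were the members that the ratio did not separate. Vil1, the actin-bundling protein villin, read 5.09 and 5.84 in small intestine and 4.83 and 4.39 in stomach, a difference of -0.86 ± 0.37 (limma adjusted p = 0.111). Pls1, another actin bundler of microvilli, read 4.83 and 5.29 against 3.98 and 3.75 (limma adjusted p = 0.201). With the slide as a block both were called, at -1.23 for Vil1 and -1.43 for Pls1. Pls1 was also called at -1.19 on the 4 arrays of the pair alone and with array weights. For Vil1 the Cy5 signal was 9538 and 8247 on the small intestine arrays and 717 and 487 on the stomach arrays, and the difference by Cy3 alone was -4.92. For Pls1 the Cy3 difference was -3.14. Zg16, a lectin of secretory granules, had the same feature. It read 3.85 and 4.79 in small intestine against 4.22 and 3.54 by the ratio, and differed by -6.12 by Cy3 alone.

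**Figure D4:**
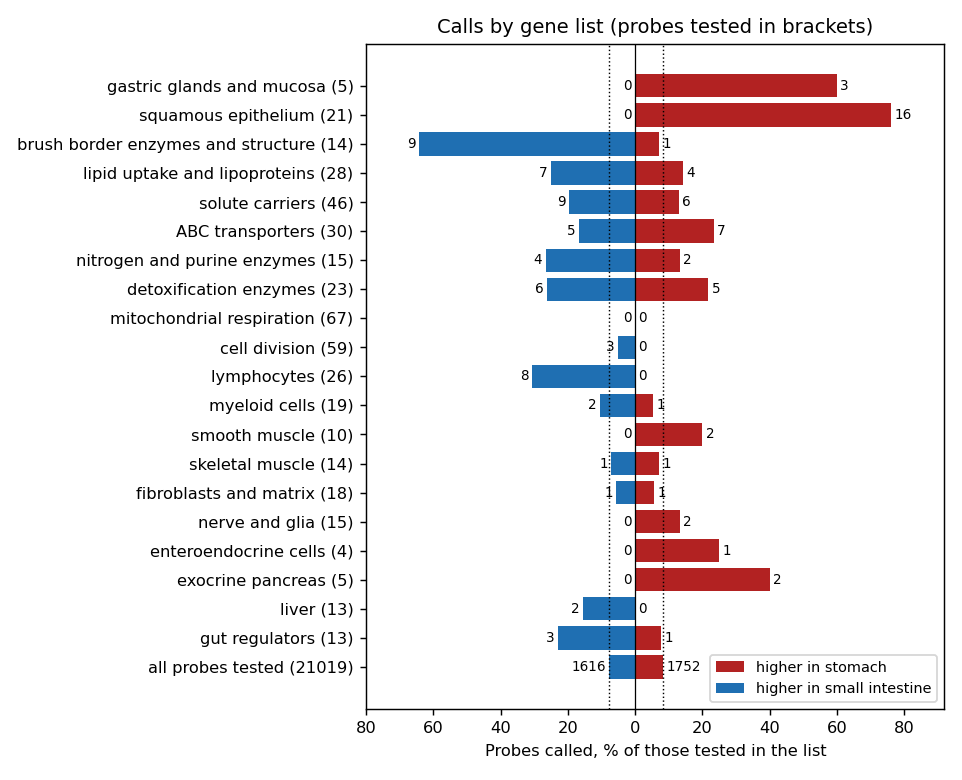
Percent of the probes tested in each gene list (y axis, number of probes in brackets) that were called higher in stomach (bars to the right) or higher in small intestine (bars to the left), with dotted lines at the shares over all probes tested, 8.34% and 7.69%. Squamous epithelium reaches 76.2% on the stomach side and the brush border 64.3% on the small intestine side, while mitochondrial respiration has no call in either direction.

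The promoters of called genes from both lists were searched for a short motif each, as a description of sequence. The window ran from 250 bases before to 50 after the RefSeq start (GRCm38.p6). TGAGTCA, the letters bound by AP-1 factors, was found on either strand in the promoters of 3 of the 13 called squamous genes with a window, Fam25c, Serpinb7 and Sprr1a. It was found in 5.20% of all 32851 promoters, or for 5.95% of all genes, and in none of the 8 brush border genes with a window. GTTAAT, a half-site of the intestinal and hepatic factor HNF1, was found on either strand in 3 of those 8 genes, Cd55, Sis and Tm4sf4. It was found in 7.10% of all promoters, or for 8.24% of all genes, and in 1 of the 13 squamous genes, Serpinb3b. The windows of Sprr1a, at chr3:92485832-92486131 on the minus strand, and Sis, at chr3:72967814-72968113 on the minus strand, are given with the motif letters in capitals. Sprr1a held 2 matches and Sis 1, which reads ATTAAC on the strand shown.
Sprr1a: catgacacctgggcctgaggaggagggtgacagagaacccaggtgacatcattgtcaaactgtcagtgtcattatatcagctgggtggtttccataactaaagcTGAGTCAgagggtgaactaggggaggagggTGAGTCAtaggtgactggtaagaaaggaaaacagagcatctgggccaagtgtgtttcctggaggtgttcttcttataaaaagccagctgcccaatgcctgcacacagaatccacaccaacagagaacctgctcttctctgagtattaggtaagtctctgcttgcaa
Sis: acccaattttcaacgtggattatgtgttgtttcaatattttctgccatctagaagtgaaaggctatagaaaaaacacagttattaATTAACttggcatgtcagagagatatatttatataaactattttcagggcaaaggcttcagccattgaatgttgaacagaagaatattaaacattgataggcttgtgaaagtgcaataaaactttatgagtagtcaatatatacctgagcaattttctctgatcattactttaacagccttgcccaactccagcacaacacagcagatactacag

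Metabolic genes differed in both directions. The urea cycle enzyme Cps1, which makes carbamoyl phosphate from ammonia, read 7.0 and 6.66 in small intestine and -0.36 and -0.38 in stomach. Its difference of -7.20 became -5.82 under median centring. That is a smaller fold than its bound, which was at least 74.9-fold higher in small intestine. Otc, the next enzyme of that cycle, was higher there too, at 1.81 and 1.54 against 0.23 and 0.19, although its difference of -1.46 became -0.95 under median centring. Ada, an adenosine deaminase, read 5.15 and 5.48 against 3.16 and 3.65 (limma adjusted p = 1.71e-06). The opposite held for Glul, the glutamine synthetase, at 2.22 and 2.13 in stomach against -1.40 and -1.35, and for the adenylosuccinate synthase Adssl1, at 0.58 and 0.44 against -3.52 and -3.46. Of the 15 nitrogen and purine enzymes tested, 4 were higher in small intestine and 2 in stomach, around a median of -0.10.

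Of 28 probes for lipid uptake and lipoproteins, 7 were higher in small intestine and 4 in stomach, with a median of -0.11. Acot12, an acetyl-CoA hydrolase, read 5.17 and 5.87 in small intestine against 0.19 and -0.04 and was at least 33.2-fold higher. Gpat3, which attaches the first acyl chain to glycerol phosphate, read 4.56 and 4.53 in small intestine against 0.73 and 0.63. Dgat1, which attaches the last one, read 4.0 and 4.45 against 1.71 and 1.80. The acyltransferases Agpat2 (-0.67) and Agpat3 (-0.37) of the same pathway were not called. Mogat1, an acyltransferase for monoacylglycerol, read 4.21 and 4.14 in stomach against 0.09 and 0.65. Abca1, the cholesterol exporter, was lower in stomach by a difference of -2.48, and the acyl-CoA thioesterase Acot1 was higher by 3.06.

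Several export pumps of drugs and bile constituents were higher in small intestine. Abcb1a, the P-glycoprotein pump, read 4.24 and 4.47 against -0.00 and -0.22. The efflux pump Abcg2 read 2.45 and 2.14 against -1.75 and -2.03. Abcb4, which moves phospholipid into bile, read 1.86 and 2.13 against -1.65 and -2.10. The conjugate exporters Abcc1 (2.05) and Abcc4 (1.92) were higher in stomach. In all, 7 of the 30 ABC transporters tested were higher in stomach and 5 in small intestine, and of 46 solute carriers 6 and 9 were, a balance that turned to 8 and 3 under median centring. Among 23 detoxification enzymes 5 and 6 were called, with the flavin monooxygenase Fmo4 at least 7.53-fold higher in small intestine and Aox3 (3.41), the carbonyl reductase Cbr2 (3.17) and the glutathione transferase Gsta3 (3.13) higher in stomach. The nuclear receptor Nr1i3, which switches on such enzymes, was at least 13.4-fold higher in small intestine. The other leading small intestine genes were Exoc3l4 (-6.24), 4930515G13Rik (-5.24), the enoyl-CoA isomerase Eci3 (-5.18), Tmem37 (-5.08) and Flacc1 (-4.94), with Smlr1 at least 66.7-fold and 2010106E10Rik at least 34.3-fold higher there. Under median centring the difference of Smlr1 was -4.39 in place of -6.06, a smaller fold than its bound.

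Part of the immune transcripts were higher in small intestine. Of 26 lymphocyte probes tested, 8 were higher in small intestine and none in stomach by limma, with 15 and 2 at an unadjusted p below 0.05. The median was -0.63, and 3 were called under median centring. Fcmr, the receptor for immunoglobulin M, read 2.62 and 2.50 against -0.24 and -0.34. The B cell gene Fcrla read 2.39 and 1.74 and was not well above background in stomach. Ptprc, which encodes the leukocyte surface phosphatase CD45, read -0.63 and -1.03 against -2.67 and -2.72, and its difference of -1.87 became -1.42 and was no longer called under median centring. Of 59 cell division probes 3 were higher in small intestine (5.08%, near the 5.43% of all probes with a symbol) and none in stomach, with 11 and 2 at an unadjusted p below 0.05 and a median of -0.34. None of those 3 calls remained under median centring, where the median was -0.07.

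Mitochondrial respiration was the one list without a call. None of its 67 probes was called in either direction. The lowest limma adjusted p among them was 0.00464, and that probe failed only the minimum difference. At an unadjusted p below 0.05, 16 were higher in stomach and 2 in small intestine. The differences ran from -0.63 to 0.85 with a median of 0.25, which is below the minimum for a call at both ends.

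The genes of both linings were also read in the other 13 tissues. The median level of the squamous list was 3.50 in stomach, 3.53 in skin and 0.01 in small intestine. That of the brush border list was 4.12 in small intestine, 3.10 in large intestine and 0.73 in stomach. Skin was the highest of the other tissues for 296 of the 1752 probes higher in stomach (16.9%), compared with 7.49% of all probes tested. For the 1616 probes higher in small intestine the large intestine was the highest of the others for 418 (25.9%, compared with 8.93%) and liver for 318 (19.7%, compared with 11.7%). The stomach level was above that of every other tissue for 392 of its 1752 probes (22.4%), and the small intestine level for 661 of its 1616 (40.9%). Serpinb3c, Serpinb13 and Slc9a4 were highest in stomach, with eyes at 3.33, skin at 1.39 and bladder at 0.10 the nearest tissues. Serpinb2 was higher in skin (5.77) and Fabp12 in eyes (6.42). Sis was second highest in large intestine (3.72), whereas Cps1 was higher in liver (8.96) and Acot12 in kidney (7.41) than in small intestine.

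**Figure D5:**
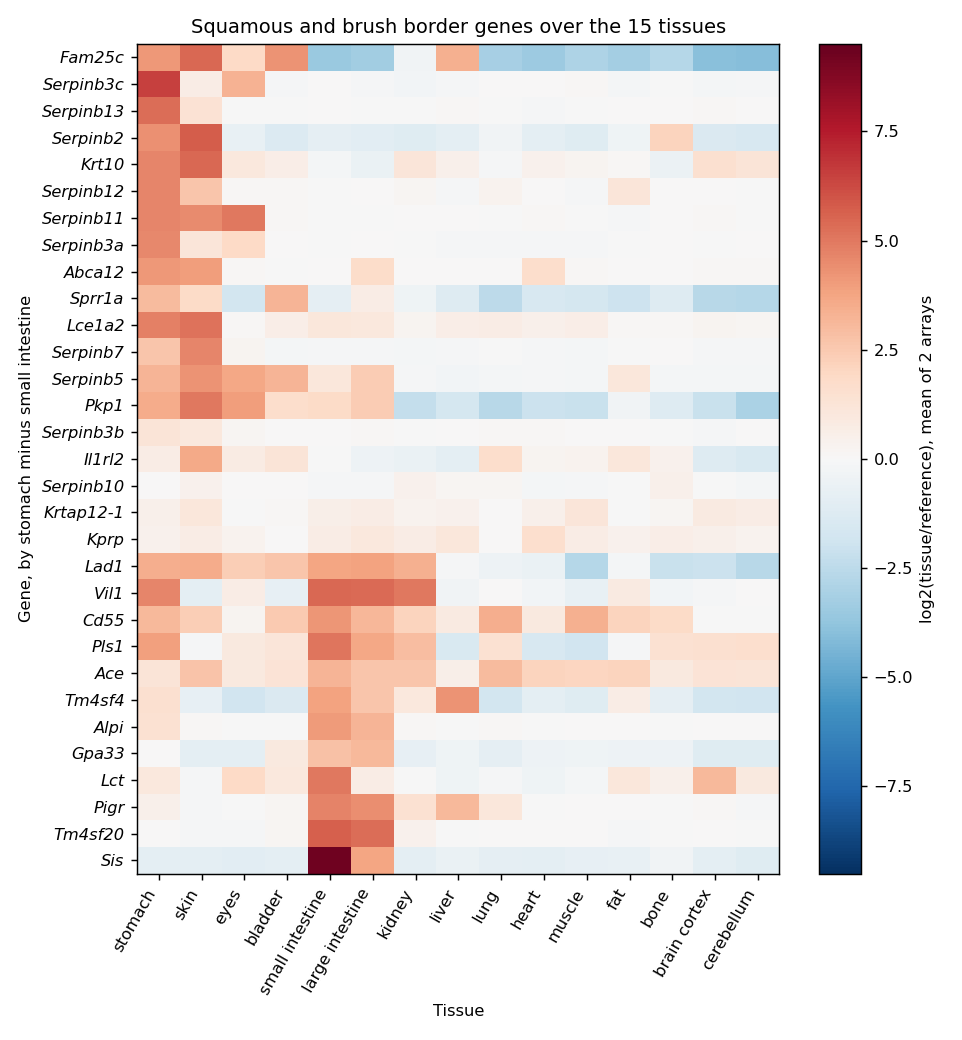
Mean log2(tissue/reference) of 2 arrays (colour scale) for the squamous and brush border genes named in the text (y axis, ordered by stomach minus small intestine) in each of the 15 tissues (x axis). The median of the whole squamous list is 3.50 in stomach and 3.53 in skin and that of the brush border list is 4.12 in small intestine and 3.10 in large intestine, with exceptions such as Serpinb3c (0.68 in skin, 3.33 in eyes) and Lct (0.74 in large intestine, 3.09 in brain cortex).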

How the data were processed

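Spot files of 30 dual-colour arrays (15 organs, 2 each) were used. The authors deposited scanner output made with Agilent Feature Extraction 9.5.1.1, whose intensity columns hold mean spot signals and median local backgrounds, and also processed intensities. The deposited value table holds log10 values adjusted by the authors; over 11596 probes its change with log10 Cy3 had a slope of 0.998 and with the Cy5 deviation from its mean a slope of -0.997, and its centring is not given in the sources used here. Here, background was corrected by normexp (offset 50), outlier spots (475 in all) and control spots were left out, and log2(Cy3/Cy5) was loess-normalised within arrays with limma 3.58.1 in R 4.3.3. Probes of the value table that were well above background in Cy3 on both arrays of at least 1 tissue were tested (21019), 14 of them lacking a value on one of the 4 arrays. Limma was fitted with 1 term per tissue (15 residual degrees of freedom), and p-values were adjusted over all probes tested. The procedure was tested on simulated data.

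Symbols came from probe lists supplied with the study, updated through RefSeq: 5049 tested probes (24.0%) had one, and chromosome 1 held 935 of the 4702 with a position, so the named genes are not a sample of the genome. Of the called probes, 2773 have no symbol here. Of these probes with a symbol, 11.8% were called. Named genes were the 12 largest non-overlapping differences in each direction, members of 20 gene lists, and Ada, Cps1, Sis, Lct and Acot12. The comparison and the gene lists were chosen with earlier results of these data known, and the arrays by their labels. For 334 probes higher in stomach (19.1%) and 175 higher in small intestine (10.8%), the other organ gave no array well above background; folds of named ones are given as bounds where a fold is printed. Between 60.8% and 66.6% of probes were well above background in Cy3 on the 4 arrays, no spot was saturated, and the number of arrays limits the precision. Whether equal replicate numbers mark the same mouse is not known. The correlation of replicate deviations between the organs was -0.141, within the range of -0.246 to 0.342 over all tissue pairs. It cannot settle the pairing, since small intestine replicate 1 lay on another slide. Alternatives covered background, scaling, detection filter, thresholds, slide, scan day, replicate block, array weights, the arrays in the fit and leaving out each array. Some list members are counted but not reported by name here.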

Additional observations from a re-analysis of the deposited data

Results flagged for a closer look

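The array carries probes that the deposited value table does not list, and these were not used in the comparison. Of 13618 such probes tested, 1539 were called (11.3%), 732 higher in stomach and 807 higher in small intestine. The largest differences were 7.96 and -8.74, and the median was -0.02. A symbol was found for 253 of the 13618. They were singled out because they lie outside the measurement used above.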

How the results depend on the processing

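No called probe was called in the opposite direction under any alternative run. With a minimum log2 difference of 2 the count was 1346, of which 682 were higher in stomach and 664 in small intestine. With no minimum difference 2687 were higher in stomach, and under median centring 1003 were higher in small intestine. When a probe had to be above background on all 4 arrays, 8 squamous probes were called higher in stomach, since fewer were tested. Leaving out one array at a time gave 2827 to 3122 called probes, 1436 to 1627 higher in stomach and 1318 to 1495 higher in small intestine. With the replicate number as a block 3398 probes were called (1762 and 1636), and with the numbers crossed in this pair, an alternative chosen after seeing the data, 3384. Cy3 alone, open to spot differences between arrays, gave 4190. Gene lists and named genes were followed over 19 alternatives, which leave out the changes of minimum difference, the crossed numbers and the test of all probes of the array. Of 551 gene list counts over these, 490 stayed within 1.5 times. For the named genes called, 1404 of 1434 values kept the call and 30 did not, all in the same direction; 29 of these genes were not tested when all 4 arrays had to be above background, and 16 had a difference below 2. Among named genes not called, 16 values were called under an alternative and 7 turned sign without a call. With 2 arrays an organ, differences near the minimum are the least certain.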

Other observations

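For comparison with the counts below, 6.36% of all tested probes with a symbol were higher in stomach and 5.43% in small intestine. Of 10 smooth muscle probes 2 were higher in stomach, among them the focal adhesion gene Tns1 (3.45 and 2.97 against 1.34 and 2.11), and the list's median was 0.70 and 0.36 within the shared slide. Of 15 nerve and glia probes 2 were higher in stomach, the axonal motor gene Kif1a (1.56 and 1.82 against -0.29 and 0.18) and Resp18, a gene of neuroendocrine granules (4.63 and 4.73 against 2.86 and 3.64). Resp18 was not called from the processed signals, where its difference was 0.13, nor by Cy3 alone (1.53, limma adjusted p = 0.0648). Of 18 fibroblast and matrix probes 1 was called in each direction (5.56%, near those shares of all probes with a symbol). The mesenchymal transcription factor Prrx1 was the one higher in small intestine (-1.22 and -1.34 against -2.77 and -2.80).

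Among 13 regulators of gut identity, 3 were higher in small intestine and 1 in stomach. Tfcp2l1, a transcription factor of several epithelia, read 2.15 and 1.71 in stomach against -0.49 and -0.59. The hedgehog ligand Ihh (-0.72) and the Wnt receptor Fzd5 (-0.70) were not called. Of 19 myeloid probes 2 were higher in small intestine, including Hcls1 (0.22 and 0.10 against -1.34 and -1.71). The mast cell tryptase Tpsb2 was the 1 higher in stomach (1.14 and 0.93 against -0.22 and -0.13). Under median centring 1 myeloid probe was called in each direction.

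Markers of other organs were read as well. Of 13 liver markers 2 were higher in small intestine, Otc and Agxt, and the summed level of the list was 4.98 to 5.04 in stomach and 4.45 to 4.61 in small intestine. Of 14 skeletal muscle markers 1 was called in each direction (7.14%, near the 6.36% and 5.43% of all probes with a symbol). Under median centring 1 was called higher in stomach and none in small intestine. Their summed levels were 3.59 and 4.54 on the stomach arrays and 3.75 and 3.89 on the small intestine arrays. Of 4 enteroendocrine markers Resp18 alone was called.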
